A study of Mus musculus with 4 samples.

Results

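The circadian clock genes of the mouse retina were compared between retinas that lost Nrl in adult life and control retinas. The genes were listed by name and not by a cut on their measured change, although earlier results of these data were known. They were Arntl (also called Bmal1), Clock, Npas2, Per1, Per2, Per3, Cry1, Nr1d1, Nr1d2 and Dbp. Of these 10 genes, 8 were measured by a probe set with a single gene symbol and stand among the 19421 genes tested, while Npas2 and Per2 are not analysed here. Each of the 8 had 1 such probe set.

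The knockout mice carried Nrlflox on both chromosomes together with CAG-CreERTM, and the control mice carried 1 floxed and 1 intact allele of Nrl together with the same CAG-CreERTM. CAG is a broadly active promoter and CreERTM a Cre recombinase switched on by tamoxifen, so deletion was not aimed at a chosen retinal cell type. All mice, controls included, were given 4-hydroxytamoxifen into the peritoneum once a day on postnatal days 42 to 44, and retinas were taken on postnatal day 63, which is 19 days after the last injection. The floxed allele of the controls was therefore open to deletion too. A percentage of control below is thus not a percentage of retinas with both Nrl alleles intact. There were 2 arrays of knockout retina and 2 of control retina, and each array held RNA pooled from 4 retinas of 2 animals. The sources used here give neither the time of day of collection nor the lighting. The phase of the daily cycle is therefore unknown for every pool, and it may differ between pools. The levels below do not give the phase or amplitude of a rhythm.

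The clock is a feedback loop of transcription. ARNTL (BMAL1) pairs with CLOCK or NPAS2 and switches on genes through E-box elements in DNA, and among the genes it switches on are Per and Cry, whose proteins return to block it, the nuclear receptors Nr1d1 and Nr1d2 (REV-ERBα and REV-ERBβ), which repress Arntl in competition with ROR receptors, and Dbp, which carries the rhythm to D-box elements of output genes. The mammalian retina holds its own clock, which times melatonin and dopamine release and visual sensitivity. Nr1d1 has a second role there: in mouse photoreceptors its protein works with Nr2e3, a nuclear receptor downstream of Nrl, on rod and cone genes.

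The values of the 4 arrays were taken as log2 expression values, on which a difference of 1 is a doubling. Nrl had values of 7.57 and 7.05 in knockout replicates 1 and 2, against 8.21 and 8.13 in control, a log2 change of −0.86 (SE 0.18, limma adjusted p = 0.289, knockout minus control). The direction matched the labels, but the sources used here do not place the probes inside or outside the deleted stretch. The 10 rod markers averaged 9.62 and 9.65 in knockout, against 10.74 and 10.71 in control, and 4 of them were called lower (an adjusted p under 0.05 in the fit over all genes, which called 0.201% of genes). Of 5 reactive glia markers 4 were called higher, with list averages of 7.02 and 7.19 in knockout, against 5.89 and 5.96 in control, and 2 of 8 microglia markers were called higher, with 6.71 and 6.67 in knockout, against 5.90 and 5.97 in control. These calls rest on all 4 arrays: without either control array 0 genes of the 3 marker lists were called, and without either knockout array, or with the replicate number as a block, 2 rod markers and 0 of the others were. In these bulk samples fewer cells of a type and less RNA per cell cannot be told apart. Replicate 1 of either genotype was low for Xist and high for the Y-linked Kdm5d and Uty, and replicate 2 ran the other way, so the spread within a group includes any difference between the sexes.

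None of the 8 clock genes was called at an adjusted p under 0.05, where limma called 0.201% of all genes (39 genes, 27 higher and 12 lower). With an unadjusted p under 0.05 there were 0 clock genes, against 7.07% of all genes. Log2 changes of the 8 ran from −0.06 for Nr1d2 to 0.09 for Per1, which is 96.0% to 106% of the control signal. Their median absolute log2 change was 0.04, beside 0.09 over all genes, and 50.7% of all genes had a larger absolute change than the largest in the list. The 8 genes lay between percentiles 59.3 and 96.1 of mean signal, while the values over all genes include genes of lower signal. Genes of like signal were not compared. The knockout and control arrays overlapped in all 8, and the groups did not overlap for 35.4% of all genes. That share is near the probability of 0.333 with which exchangeable arrays, 2 against 2, would fail to overlap.

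The intervals say how large a change these arrays leave room for. Over the 8 genes, the 95% intervals from limma ran from 81.0% of control at the lowest bound (Nr1d2) to 134% at the highest (Per1). A p that misses the threshold does not show that the levels are equal, and the smallest absolute log2 change of any called gene in the whole table was 0.88. An exact permutation test of 2 arrays against 2 cannot go below p = 0.333, so it was not used for calls.

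**Figure D1:**
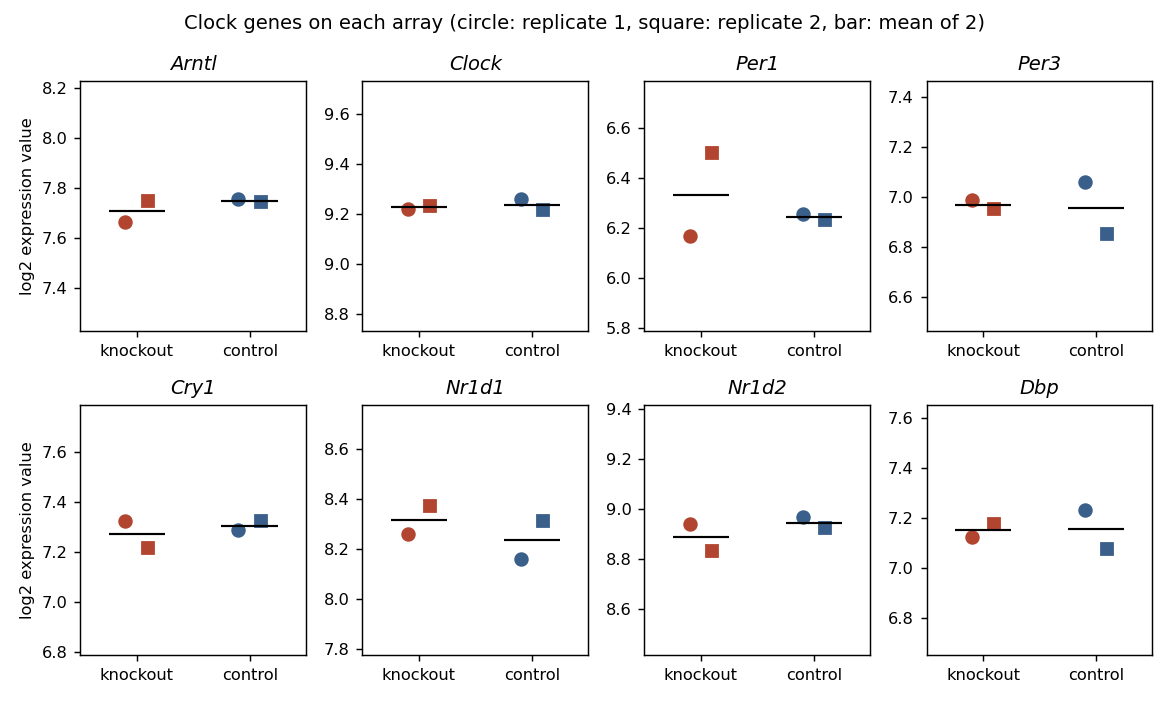
Log2 expression value (vertical axis, 1 unit in every panel) of the 8 measured clock genes on each array, with knockout left of control. Circles are replicate 1, squares replicate 2 and bars the mean of 2 arrays. The knockout and control points overlap in every panel, and the widest gap within a group is the 0.33 between the knockout arrays for Per1.

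Elements that the clock proteins bind were looked for in the 250 bases before each RefSeq start of the measured clock genes and of 2 further loop genes described below (Ciart and Nfil3), on both strands (RefSeq, GRCm38.p6). The motifs were the E-box CACGTG, the core site AGGTCA of ROR and REV-ERB receptors, the D-box TTANGTAA and the cyclic AMP element TGACGTCA, and none of the matches found overlap. All 8 clock genes had at least 1 window. E-boxes were found in Per1 and Cry1, receptor core sites in Clock, Per1 and Nr1d2, and D-boxes in Per3, while the cyclic AMP element was in 0 of the 8. Clock had 3 windows, and its core site lay only in that of start 3. Outside the list only Ciart, Bhlhe40 and Nfil3 were looked up, the other core loop genes with the smallest p by limma. Bhlhe40 had no window, Ciart held E-boxes, and Nfil3 held a receptor core site beginning 12 bases before its start. The remaining core loop genes were not searched. Of 32851 windows in the table, 6.02% hold the E-box, 14.0% the core site, 2.06% the D-box and 1.55% the cyclic AMP element. These shares are per window, whereas a gene with several starts had several windows. A match describes the letters of the window, and it is not evidence of binding. Elements outside the windows, or with other letters, were not searched.

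The windows of Per1, Cry1, Per3, Nr1d2 and Ciart are shown with the motif in capitals, on the strand of the gene, 5′ to 3′. A link between a motif and the change of its gene was not tested. Bases inside the annotated gene are left out, and for Per1, whose window lies inside the annotated gene, 30 bases around the E-box are given (chr11:69098771-69098800, plus strand). The others are Cry1 at chr10:85185055-85185304, Per3 at chr4:151044708-151044915, Nr1d2 at chr14:18239107-18239356 and Ciart, a repressor of the loop described further on, at chr3:95882258-95882478, all on the minus strand.
Per1, E-box: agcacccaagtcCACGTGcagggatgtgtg
Cry1, E-box: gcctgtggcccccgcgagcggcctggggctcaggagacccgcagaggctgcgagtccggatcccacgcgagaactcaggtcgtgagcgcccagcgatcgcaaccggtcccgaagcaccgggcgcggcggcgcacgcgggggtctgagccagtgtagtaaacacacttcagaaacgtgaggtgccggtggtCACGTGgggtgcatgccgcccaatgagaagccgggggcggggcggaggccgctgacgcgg
Per3, D-boxes: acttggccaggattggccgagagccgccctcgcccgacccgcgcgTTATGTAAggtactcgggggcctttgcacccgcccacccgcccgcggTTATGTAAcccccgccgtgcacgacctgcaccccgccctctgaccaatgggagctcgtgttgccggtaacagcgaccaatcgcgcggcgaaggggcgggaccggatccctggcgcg
Nr1d2, receptor core site: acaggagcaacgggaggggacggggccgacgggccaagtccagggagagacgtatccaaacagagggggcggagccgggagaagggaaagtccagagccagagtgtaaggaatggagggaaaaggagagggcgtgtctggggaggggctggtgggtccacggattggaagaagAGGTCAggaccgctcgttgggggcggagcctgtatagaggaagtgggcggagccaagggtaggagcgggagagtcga
Ciart, E-boxes: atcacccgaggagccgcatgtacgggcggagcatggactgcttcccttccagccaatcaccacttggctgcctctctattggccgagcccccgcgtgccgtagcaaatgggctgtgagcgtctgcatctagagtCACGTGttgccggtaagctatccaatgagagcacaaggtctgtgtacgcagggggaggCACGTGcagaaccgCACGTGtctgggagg
The E-box of Cry1 begins 60 bases before the start and that of Per1 166 bases before it. Per3 holds 2 D-boxes, beginning 205 and 158 bases before the start. The core site of Nr1d2 begins 77 bases before the start, and the E-boxes of Ciart begin 116, 58 and 44 bases before it.

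The activators of the loop differed between the genotypes by less than the spread between pools. Arntl had log2 values of 7.66 and 7.75 in knockout, against 7.75 and 7.74 in control. Knockout replicate 1 was the lowest of the 4 and the others lay close together. The change was −0.04 (SE 0.10, limma adjusted p = 0.977), with a 95% interval of 82.3% to 115% of control. Clock, which encodes the partner of ARNTL, had 9.22 and 9.23 in knockout, against 9.26 and 9.21 in control. Its 4 arrays spanned 0.04 on the log2 scale, the narrowest range among the measured clock genes, and its change was −0.01 (SE 0.10, adjusted p = 0.995).

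Among the repressors that close the loop, Per1 showed the widest spread. Per1, a period gene that also responds acutely to light and hormones, had 6.17 and 6.50 in knockout and 6.26 and 6.23 in control. Knockout replicate 2 was the highest array and knockout replicate 1 the lowest, with the controls between them. The change of 0.09 (SE 0.13, limma adjusted p = 0.956) rested on knockout replicate 2, and it was −0.08 without that array and 0.26 without knockout replicate 1.

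Per3, another period gene, had 6.99 and 6.95 in knockout, against 7.06 and 6.85 in control, so that both knockout arrays lay between the controls. Its change was 0.01 (SE 0.11, limma adjusted p = 0.994), and 0.12 without control replicate 1 and −0.09 without control replicate 2. Cry1, a cryptochrome that strongly represses the ARNTL and CLOCK pair, had 7.33 and 7.22 in knockout and 7.29 and 7.33 in control. The lowest value was knockout replicate 2 and the other arrays lay together, with a change of −0.03 (SE 0.10, adjusted p = 0.982). Per1 and Cry1, the clock genes with an E-box in the windows above, thus stood at 106% and 97.6% of control, with intervals of 84.9% to 134% and 82.4% to 116%.

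Dbp, the D-box activator whose RNA swings widely over the day in many tissues, had 7.12 and 7.18 in knockout, against 7.23 and 7.07 in control. The knockout arrays lay between the controls, as for Per3. Its knockout level was 99.8% of control, with a 95% interval of 83.4% to 119% (adjusted p = 0.999 by limma).

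Nr1d1, the clock gene with a known part in rod gene regulation, had 8.26 and 8.37 in knockout and 8.16 and 8.31 in control. The lowest array was control replicate 1 and the highest knockout replicate 2, and knockout replicate 1 lay below control replicate 2. The knockout mean was 8.31 ± 0.08 against 8.24 ± 0.11 in control (SD, n = 2 each), a log2 change of 0.08 (SE 0.11, limma adjusted p = 0.952). That is 106% of control, with a 95% interval of 87.9% to 127%. Within replicate 1 the difference was 0.10 and within replicate 2 it was 0.06, and in either genotype replicate 2 was higher, by 0.11 in knockout and 0.15 in control. Leaving out each array in turn gave changes from 0.003 (without control replicate 1) to 0.16 (without control replicate 2).

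The 3′ end of Nr1d1 overlaps Thra, the thyroid hormone receptor α gene on the opposite strand, in the RefSeq annotation. Thra had 6.90 and 6.87 in knockout, against 6.95 and 6.89 in control, a change of −0.04 (SE 0.10, limma adjusted p = 0.977). The sources used here do not say whether the probes of either gene lie in the shared stretch. Nr1d2, the paralogue of Nr1d1, had 8.94 and 8.83 in knockout and 8.97 and 8.92 in control. Knockout replicate 2 was lowest, and the others lay close together. Its change was −0.06 (SE 0.10, adjusted p = 0.966), with both replicate differences negative (−0.03 and −0.09). Of the 8 clock genes, only Nr1d1 and Nr1d2 had replicate differences of the same sign in replicates 1 and 2. The same held for 10595 of all 19421 genes. The differences of Nr1d1 and Nr1d2 had opposite directions, and neither gene passed the test.

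The 5 genes of the whole table whose centred values over the 4 arrays lay nearest to those of Nr1d1 were Tmem190, Defb39, Olfr1366, Adcy7 and Ikzf4. Their Euclidean distances ran from 0.008 for Tmem190 to 0.014 for Ikzf4. The nearest of the other clock genes was Arntl at 0.17, and 4400 genes lay nearer to Nr1d1 than it did. With 4 arrays and differences this small, such a ranking describes these arrays only.

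The measured factors that act in rods beside Nr1d1 all had lower mean values in knockout than in control, although none passed the test under the main settings. Of 6 measured genes of rod transcription (Nrl, Crx, Esrrb, Rorb, Mef2c and Samd7), 0 were called, 6 were below 0 and the median log2 change was −0.33, beside −0.003 over all genes. Of all 19421 genes, 9894 were below 0. Nrl itself is one of the 6, and Nr2e3 is not analysed here. Rorb, at −0.16, differed by −0.48 in replicate 1 and 0.16 in replicate 2, and stood at 0.18 without control replicate 1. Esrrb, an orphan receptor of rods, had 5.70 and 5.89 in knockout, against 6.53 and 6.21 in control, a change of −0.57 (SE 0.14, limma adjusted p = 0.421). Mef2c, a MADS box factor, had 8.57 and 8.55 in knockout and 9.01 and 9.01 in control, a change of −0.45 (SE 0.10, adjusted p = 0.305). Crx, the homeobox factor shared by rods and cones, stood at −0.20 (adjusted p = 0.777) and Samd7, a rod repressor, at −0.10 (adjusted p = 0.928). The arrays did not overlap for Nrl, Esrrb, Mef2c and Crx, with knockout lower each time, as was the case for 18.4% of all genes. Exchangeable arrays would fail to overlap, in either direction, with the probability of 0.333 given above. Their difference from Nr1d1 was not tested.

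**Figure D2:**
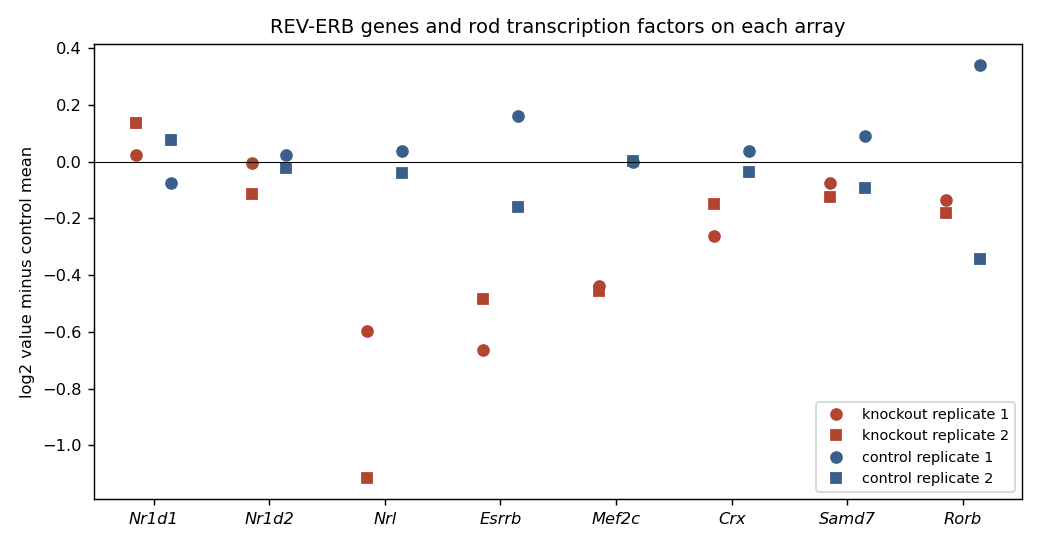
Log2 value minus the control mean (vertical axis) on each array for Nr1d1, Nr1d2 and 6 rod transcription regulators, with knockout points (red) left of control points (blue). The knockout points of Nr1d1 lie above 0, at 0.02 and 0.13, and those of Nrl at −0.60 and −1.12.

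Ciart and Bhlhe40 had the largest differences among the other genes of the core loop, without passing the test. Of 10 measured 0 were called, 4 were above 0 and 6 below, with a median absolute log2 change of 0.13 and a median of −0.07. Ciart (also called CHRONO), a repressor of the ARNTL and CLOCK pair, had 5.78 and 6.07 in knockout, against 6.37 and 6.54 in control. Both knockout arrays were below both controls, and the knockout level was 69.2% of control (log2 change −0.53, SE 0.13, unadjusted p = 0.00715, adjusted p = 0.453 by limma). The difference was −0.59 in replicate 1 and −0.47 in replicate 2.

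Bhlhe40 (DEC1), which competes for E-boxes and also answers to many stress signals, stood in the opposite direction. It had 6.40 and 6.42 in knockout, against 6.23 and 5.91 in control, a log2 change of 0.35 (SE 0.13, unadjusted p = 0.0395, limma adjusted p = 0.670). The change was 0.51 without control replicate 1 and 0.18 without control replicate 2. Its relative Bhlhe41 (DEC2) had −0.14 (adjusted p = 0.855), with 8.38 and 8.46 in knockout and 8.57 and 8.55 in control. The markers of reactive glia and microglia were higher in knockout on the same arrays, as given above, and their part in the value of Bhlhe40 was not tested.

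Nfil3, a D-box repressor that opposes Dbp, had 6.86 and 6.57 in knockout, against 7.06 and 6.88 in control (−0.25, SE 0.14, limma adjusted p = 0.802). The knockout arrays were below the controls, narrowly so for knockout replicate 1. Hlf and Tef, activators related to Dbp, stood at −0.12 and −0.03. Rora and Rorb, receptors that activate Arntl, stood at 0.06 and −0.16. Rorb, which also acts in rod development, had 8.96 and 8.92 in knockout, between its controls at 9.44 and 8.76. Cry2 was at 0.04 and Arntl2, the paralogue of Arntl, at 0.03.

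**Figure D3:**
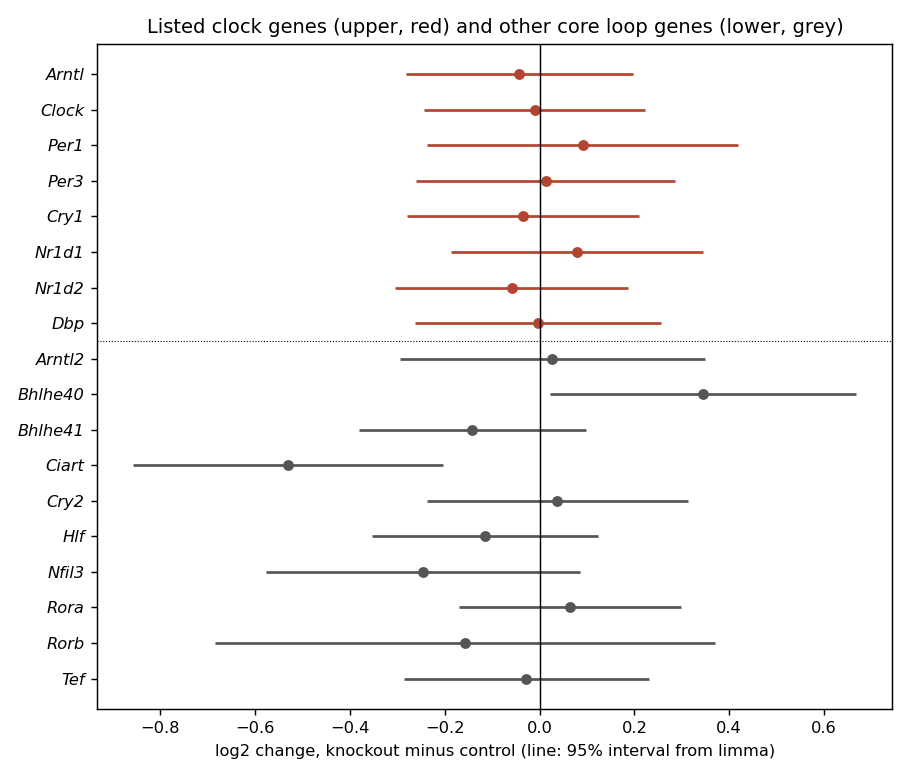
Log2 change, knockout minus control (horizontal axis), with the 95% interval from limma, for the 8 clock genes (red, upper) and 10 other core loop genes (grey, lower). All 8 intervals of the clock genes span 0, while those of Ciart (−0.86 to −0.20) and Bhlhe40 (0.02 to 0.67) do not, before adjustment over all genes.

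The machinery that modifies and degrades clock proteins had 0 calls among 10 measured genes, a median of 0.03 and 7 genes above 0. Usp2, a deubiquitinase that is itself a rhythmic output of the clock, had the smallest p of this list. It had 7.70 and 8.38 in knockout, against 7.19 and 7.93 in control, a change of 0.48 (SE 0.30, limma adjusted p = 0.831). Replicate 2 exceeded replicate 1 by 0.68 in knockout and 0.74 in control, wider than the difference between the genotypes, which was 0.51 in replicate 1 and 0.45 in replicate 2. With the replicate number, and so the sex of the pools, as a block the change of Usp2 had an SE of 0.09 (unadjusted p = 0.00411, limma adjusted p = 0.373) and was still not called. The gaps between replicates were larger than those of 99.2% and 99.4% of all genes within knockout and within control. Timeless, which encodes a replication fork protein, had −0.14 (limma adjusted p = 0.900).

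Genes of melatonin, dopamine and light input, the known outputs and inputs of the retinal clock, had 0 calls among 11 measured (Asmt is not analysed here), with a median of 0.02. The melatonin receptor gene Mtnr1a had −0.30 (unadjusted p = 0.0492, limma adjusted p = 0.705) at a level above only 5.10% of genes, and its relative Mtnr1b had 0.28 (adjusted p = 0.814). Aanat, which encodes the rhythmic enzyme of melatonin synthesis, had 5.68 and 5.54 in knockout, against 5.58 and 5.60 in control. Drd4, the dopamine receptor of photoreceptors whose RNA is rhythmic in the retina, had 7.84 and 7.47 in knockout and 7.60 and 7.60 in control. The groups overlapped for both.

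Further outputs and cofactors of the clock had 0 calls among 5 measured, with Hdac3, a corepressor of the REV-ERBs, at 0.18 (limma adjusted p = 0.863) and Nampt, of NAD synthesis, at 0.13 (adjusted p = 0.910). Among 7 genes of the glucocorticoid response (targets and the receptor gene Nr3c1), a list given because Per1 also answers to this hormone, 0 were called and the median was −0.05. Dusp1, a phosphatase of MAP kinases, had −0.29 (adjusted p = 0.715), with 6.16 and 6.10 in knockout and 6.30 and 6.55 in control. Tsc22d3, known as GILZ, had −0.05 (adjusted p = 0.972).

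The spread between pools was small for most clock genes. Between replicates of a genotype, the median absolute log2 gap of the 8 genes was 0.09 in knockout and 0.05 in control. Over all genes, which include those of lower signal, it was 0.12 and 0.13. Since the groups overlapped in all 8, the gap within at least 1 genotype could not be narrower than the difference between the genotypes. For 7 of the 8 the gap within knockout alone was wider than that difference, and the share of all genes with such a gap was not computed. Averaged over Arntl and Clock, values relative to the control mean were −0.05 and −0.003 in knockout, against 0.01 and −0.01 in control. Averaged over Per1, Per3, Cry1, Nr1d1, Nr1d2 and Dbp, they were −0.01 and 0.03 in knockout, against 0.02 and −0.02 in control. Opposite differences cancel in these averages, since 3 of these 6 genes had changes above 0 and 3 below.

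**Figure D4:**
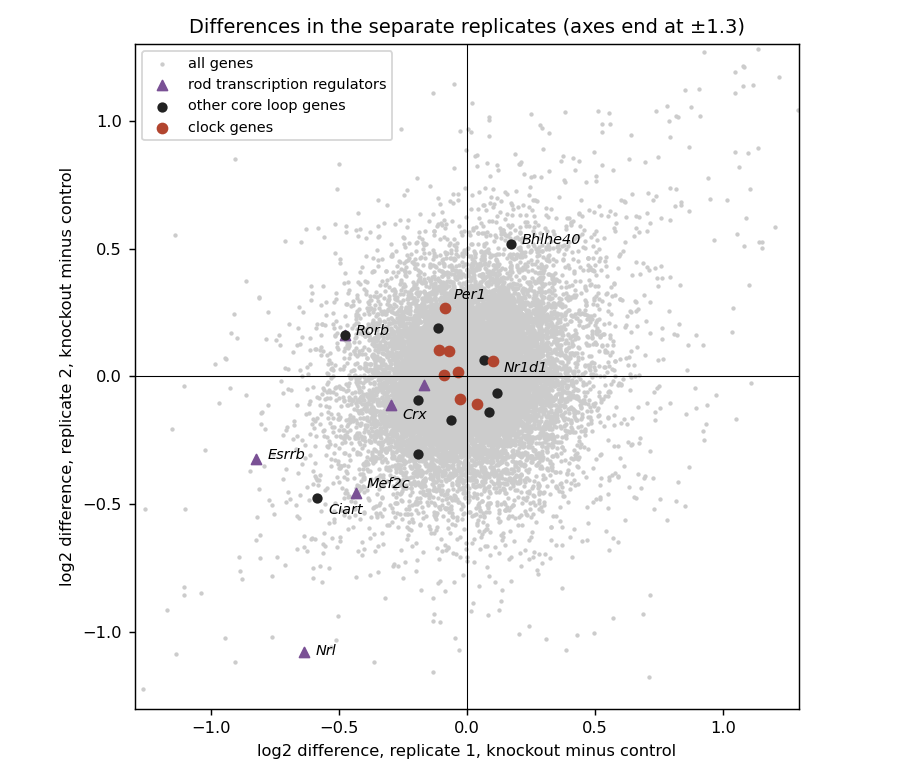
Log2 difference, knockout minus control, in replicate 1 (horizontal axis) and replicate 2 (vertical axis) for all genes (grey), the 8 clock genes (red), other core loop genes (black) and rod transcription regulators (purple triangles). The clock genes lie near the origin, with Per1 at −0.09 and 0.27 the farthest out, while Ciart, Esrrb, Mef2c and Nrl lie at negative values on both axes.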

How the data were processed

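Whole-retina RNA was measured on 4 arrays, 2 per genotype. The authors deposited log2 expression values for 21897 probe sets. Per the submitters' processing notes, affy and limma were used, in roles and versions not given. The sources used here do not give the background correction, the normalization or the log base. The log2 scale was taken from the range of 1.34 to 12.75, with array medians of 5.99 to 6.04, and kept. Detection values were not used, and the number of arrays limits the precision.

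Probe sets were named from the platform annotation (20877 with 1 symbol, 175 with several, 845 with none, the last 2 kinds untested). The probe set with the highest mean stood for each of 19421 genes. The genotypes were compared in R 4.3.3 with limma 3.58.1 (lmFit, then eBayes, genotype only, two-sided, Benjamini-Hochberg over all genes, call at adjusted p under 0.05), checked on simulated data. Replicates are pools of different animals. The members and lists were chosen with earlier results of these data known. All 10 clock genes were to be named, with the called genes or the 2 smallest p of 6 further lists (48 of 55 genes measured), the core loop genes, Thra and the 5 genes nearest to Nr1d1; Aanat, Drd4, Esrrb, Crx and Samd7 were chosen after their values were seen. Alternatives changed the scaling, signal filter, probe set, variance model, replicate block and arrays.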

Additional observations from a re-analysis of the deposited data

How the results depend on the processing

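None of the 8 clock genes was called under any of the 12 alternatives, in which their log2 changes ran from −0.11 to 0.26 and their adjusted p-values from 0.803 upwards. With 1 probe set each, the clock genes kept their exact log2 change under the signal filters, probe set choices, variance trend and replicate block. Their sign could turn only with rescaling or with an array left out. Over all alternatives the sign was kept in 87 of 96 values, and in all 12 for Arntl, Nr1d1 and Nr1d2. The sign turned for Dbp after quantile normalization (0.015) and for Per3 after median centring (−0.0054). Leaving out each array gave ranges of −0.083 to 0.076 for Dbp, −0.091 to 0.12 for Per3, −0.076 to 0.26 for Per1, −0.088 to 0.019 for Cry1 and −0.032 to 0.011 for Clock. The number of genes called in the whole table moved more, to 89 when genes of mean signal under the 50th percentile were left out, 128 with a variance trend, 8 with the replicate block and 0 to 11 with an array left out (0 without either control array, where limma gave 1355 and 1328 genes at an unadjusted p under 0.05); the cause was not tested. Same-numbered pools deviated together (r = 0.24 over genes). Without Xist, Kdm5d, Uty and those measured of Ddx3y and Eif2s3y, r was 0.14 over 19417 genes. Other sex-linked genes were kept in that value, so it is not free of sex. The number carries the sex of the pools in both genotypes, but 2 pairs do not establish pairing beyond that. With the replicate block Nr1d1 had 0.08 at an adjusted p of 0.857, and 0 clock genes were called. Ciart ran from −0.67 to −0.39 over the alternatives, with adjusted p-values no lower than 0.179, and Bhlhe40 from 0.18 to 0.51, no lower than 0.401. Mef2c ran from −0.46 to −0.42 and was called with the variance trend (limma adjusted p = 0.0408), the setting with 128 calls. Nrl ran from −1.12 to −0.60, with adjusted p-values no lower than 0.0748.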
